A study of Homo sapiens with 8 samples.

Results

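The FOS and JUN genes encode the core subunits of AP-1, a transcription factor built from pairs of basic leucine zipper (bZIP) proteins. The 7 genes of the family, *FOS*, *FOSB*, *FOSL1*, *FOSL2*, *JUN*, *JUNB* and *JUND*, were chosen by name among the 20030 genes listed for each library, and all 7 were found. Of these, 6 passed the filter of at least 1 FPKM in at least 2 libraries and were tested with 10677 genes in all, and *FOSB* did not pass. FPKM divides the fragments of a gene by its length and by the library total, so that levels of different genes can be set side by side.

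As background, FOS proteins bind DNA as partners of a JUN protein or of another bZIP protein, whereas JUN proteins can also pair with each other. The pairs recognise the letters TGACTCA or close variants, often at enhancers that the TEAD transcription factors and their coactivators YAP and TAZ also occupy. *FOS*, *FOSB*, *JUN* and *JUNB* are known as immediate-early genes that serum and growth factor signals induce within minutes, while *FOSL1* (encoding FRA1) is a later gene held high in many carcinoma cells with active RAS and MAP kinase signalling.

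The study asked how the homeobox factor HHEX takes part in transcription by YAP, TAZ and TEAD in HCT-116, a human colorectal cancer cell line. RNA of unsorted cells transfected with siRNAs was sequenced in 8 libraries. A control siRNA was used in 2 of them (siNC), *HHEX* was the target in 3 (siHHEX), *YAP1* together with *WWTR1*, which encode YAP and TAZ, in 2 (siYAP/TAZ), and the 4 TEAD genes in 1 (siTEAD1/2/3/4). The study's methods number a different siRNA, or pair of siRNAs, for each numbered knockdown, so that the spread within siHHEX or siYAP/TAZ holds the difference between siRNAs as well as between cultures. All libraries are of 1 cell line, no label says that replicates came from separate cultures, and the p values measure the spread between these libraries alone.

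FPKM summed to between 331662.7 in siYAP/TAZ 1 and 383422.6 in siHHEX 3. The number of reads is unknown, and the spacing of the lowest values put the depth of each library at 0.924 to 1.11 times that of siNC 1. *HHEX* was at 8.60 and 9.06 FPKM in siNC and at 3.25, 3.54 and 1.85 FPKM in siHHEX 1, 2 and 3, so that the groups did not overlap (limma adjusted p = 0.0054). *YAP1* was at 20.2 and 19.7 FPKM in siNC and at 6.90 and 8.39 FPKM in siYAP/TAZ, and *WWTR1* fell from 6.80 and 6.72 FPKM to 2.64 and 2.58 FPKM (limma adjusted p = 0.0156). The change of *YAP1* in siYAP/TAZ did not pass the adjustment (log2 change -1.28, limma adjusted p = 0.0681), but passed after a correction for GC content and transcript length (-1.40, 0.035). In siHHEX 1, 2 and 3 *YAP1* was at 5.77, 17.4 and 6.93 FPKM (log2 change -1.07, limma adjusted p = 0.0429, and 0.161 after the correction). *WWTR1* was at 5.12, 6.12 and 8.55 FPKM in these libraries and was not called (-0.055, limma adjusted p = 0.82, and 0.366 after the correction). *HHEX* was at 4.80 and 7.12 FPKM in siYAP/TAZ 1 and 2, below both siNC values, and was not called (-0.52, limma adjusted p = 0.196). In the library labelled siTEAD1/2/3/4, *TEAD1*, *TEAD2* and *TEAD4* were at 48.4%, 72.0% and 26.7% of their siNC means. *TEAD3*, at 9.08 FPKM against 7.36 and 6.99 FPKM in siNC, was not lower there, so that this library goes against its label for 1 of its 4 targets and is called by its label below. The TEAD genes also differed in the other knockdowns. *TEAD1* fell in siHHEX, to 6.99, 10.2 and 5.30 FPKM from 18.3 and 19.0 FPKM in siNC (log2 change -1.25, limma adjusted p = 0.00641, and 0.0189 after the correction), and *TEAD2* rose there (0.78, 0.00709, and 0.074 after the correction). *TEAD4* fell in siYAP/TAZ, to 62.7% of the siNC mean (-0.63, 0.025), and in siHHEX it was called lower after the correction (-0.51, 0.031). The part of these levels in the *FOSL1* values was not tested.

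The cell type was checked against epithelial markers. All 6 (*EPCAM*, *CDH1*, *KRT8*, *KRT18*, *KRT19* and *CLDN4*) were above 0 in every library, with sums from 2033 to 3717 FPKM, of which *KRT8* was the most abundant at 897.4 to 1757 FPKM. The sums were lowest in the siYAP/TAZ libraries, where *KRT8* and *KRT18* fell (log2 changes -0.88 and -1.22, limma adjusted p = 0.00227 and 0.000861) and the other 4 were not called. Of these 4, *CLDN4* was at 0.69 (0.0592, or 0.0449 after the correction), *CDH1* at 0.30, *KRT19* at -0.37 and *EPCAM* at -0.14. In siHHEX, *KRT18* and *EPCAM* fell by 0.29 and 0.38 on the log2 scale (limma adjusted p = 0.0348 and 0.0289, the latter 0.102 after the correction), and *CLDN4*, *KRT19*, *KRT8* and *CDH1*, at 0.30, 0.21, 0.036 and -0.12, were not called. After the correction, *KRT8* and *KRT18* were called lower in siHHEX, at -0.34 and -0.68 (0.0424 and 0.00444). The 5 fibroblast markers summed to 0.726 to 1.69 FPKM in 6 libraries and to 1.83 FPKM in siHHEX 3 and 2.71 FPKM in siYAP/TAZ 2. *COL1A1* was the most abundant of them in every library, at 1.37 FPKM in siHHEX 3 and 2.04 FPKM in siYAP/TAZ 2. It was at 1.59 FPKM in the library labelled siTEAD1/2/3/4, 1.19 FPKM in siYAP/TAZ 1 and at most 0.915 FPKM in siNC, siHHEX 1 and siHHEX 2. The fibroblast marker *DCN* was at 0 in siNC 1, siNC 2, siHHEX 1, siHHEX 2 and the library labelled siTEAD1/2/3/4. siHHEX 3 and siYAP/TAZ 2 also had the most genes above 0, 14669 and 15034 against 14042 to 14518 elsewhere. The 5 leukocyte markers summed to 6.87 FPKM in siHHEX 3 and 6.68 FPKM in siYAP/TAZ 2, and to 8.19 FPKM in siYAP/TAZ 1, against 3.55 to 5.48 FPKM in the other 5 libraries. *CD68* was the most abundant of them throughout, and *PTPRC* was at most 0.101 FPKM. *LYZ* was at 0.122 and 0.098 FPKM in siNC, 0.031 and 0.095 FPKM in siHHEX 1 and 2, and 1.52 FPKM in siHHEX 3. It was at 0.846 and 1.25 FPKM in siYAP/TAZ 1 and 2 and at 0.476 FPKM in the library labelled siTEAD1/2/3/4. *LYZ* was not called in siHHEX or siYAP/TAZ (limma adjusted p = 0.415 and 0.154). The 3 endothelial markers summed to at most 0.0882 FPKM. The results were therefore also computed without siHHEX 3 and siYAP/TAZ 2 together, and the part of the marker differences in them was not tested.

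Short stretches of the promoters are shown because *JUN* and *JUND* were among the members that changed, with those of *FOSL2*, *JUNB* and *FOS* beside them. RefSeq sequences (GRCh38.p14) from 250 bases before to 50 bases after the transcription start were searched on both strands for the AP-1 letters TGACTCA, the cAMP-response letters TGACGTCA, the *JUN* promoter variant TGACATCA, the TEAD letters GGAATG, the letters TATAAA, and the CArG box of the serum response factor, none of which overlapped another in the stretches below. The windows of 6 of the 7 members were found, all but that of *FOSL1*. The stretches below read 5′ to 3′ on the gene's strand, with the match in capitals. That of *JUND* is at chr19:18281789-18281848 (minus strand), that of *JUN* at chr1:58784081-58784140 (minus strand), that of *FOSL2* at chr2:28392851-28392880 (plus strand), that of *JUNB* at chr19:12791426-12791485 (plus strand) and that of *FOS* at chr14:75278768-75278827 (plus strand).
JUND: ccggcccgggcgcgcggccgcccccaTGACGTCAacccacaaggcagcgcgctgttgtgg
JUN: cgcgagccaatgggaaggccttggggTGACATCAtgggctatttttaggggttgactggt
FOSL2: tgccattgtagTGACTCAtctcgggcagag
JUNB: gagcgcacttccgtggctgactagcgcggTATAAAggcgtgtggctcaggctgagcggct
FOS: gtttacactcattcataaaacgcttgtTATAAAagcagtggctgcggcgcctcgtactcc

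TGACTCA was found in 1 of the 6 windows, that of *FOSL2*, where it lies 5 bases after the start, and in 4.95% of 35116 promoter windows of the same length. The start of this window lies inside the *FOSL2* gene as given below, downstream of its first base, so that these letters are not upstream of the gene. TGACGTCA was in the *JUND* window, 200 bases before the start, and in 1.85% of all windows, and TGACATCA was in the *JUN* window, 67 bases before the start, and in 2.61% of all windows. TATAAA was found 33, 30 and 31 bases before the starts of *FOS*, *FOSB* and *JUNB*, and in 11.5% of all windows. GGAATG, found in 14% of all windows, and the CArG box, found in 1.29%, were in none of these 6 windows. Letters more than 250 bases before or 50 bases after a start were not searched, so their absence here says nothing of sites further away. These matches describe letters and not binding.

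In siNC, *FOSL1* was by far the most abundant member, at 147 ± 0.604 FPKM (n = 2, SD), and only 1.75% of all listed genes had a higher level. *JUND* at 59.5 ± 3.32 FPKM (n = 2, SD) and *JUNB* at 51.3 ± 0.716 FPKM (n = 2, SD) followed, and their values, 57.2 and 61.9 FPKM against 50.8 and 51.9 FPKM, lay close but did not overlap. *FOSL2* was at 7.89 ± 0.504 FPKM (n = 2, SD), *JUN* at 3.04 ± 0.575 FPKM (n = 2, SD), *FOS* at 1.67 ± 0.296 FPKM (n = 2, SD) and *FOSB* at 0.671 ± 0.175 FPKM (n = 2, SD). No neighbouring members in this order overlapped in siNC. The classical members *FOS* and *JUN* thus ranked 9172 and 7848 among the 20030 genes, far below *FOSL1* at 351.

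**Figure D1:**
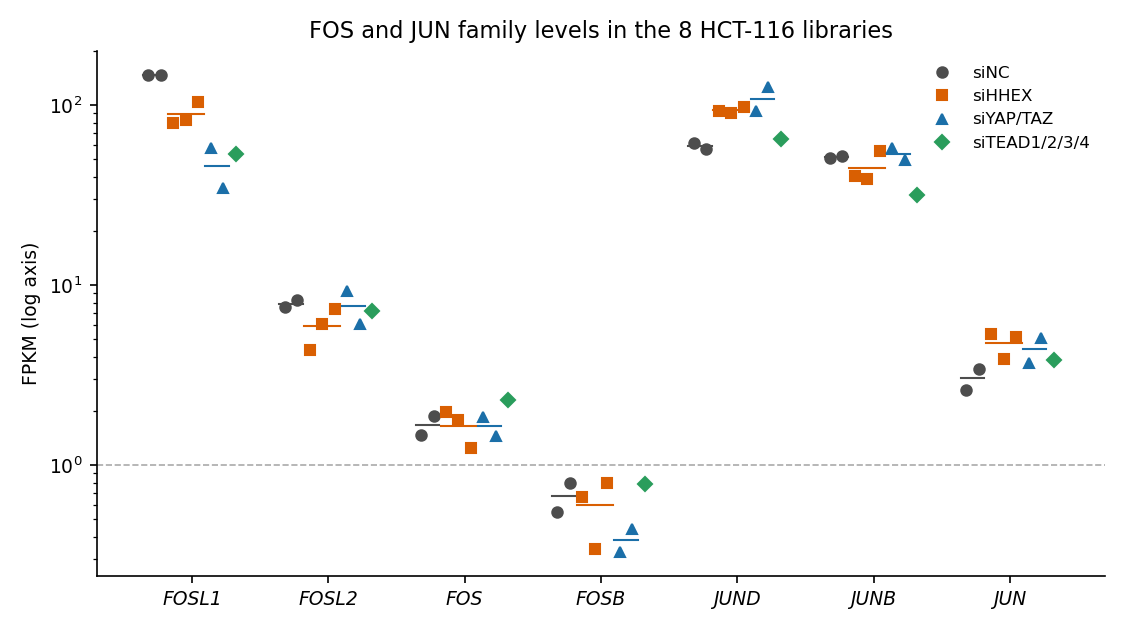
FPKM (log axis) of the 7 family members in each of the 8 libraries, with points and symbols for siNC, siHHEX, siYAP/TAZ and siTEAD1/2/3/4, horizontal bars at group means and a dashed line at 1 FPKM, the level used in the filter. *FOSL1* lies at 147 FPKM in siNC and at 34.5 to 104 FPKM in every knockdown library, while the *JUND* points of siHHEX and siYAP/TAZ, from 89.8 to 125 FPKM, lie above both siNC points.

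In siHHEX and siYAP/TAZ, *FOSL1* fell and *JUND* rose, though the siHHEX rise of *JUND* was not called after a correction for GC content and length. *JUND* was above *FOSL1* in 5 of the 6 knockdown libraries. In siHHEX, 1 of the 6 tested members was lower and 2 were higher, where 16.9% of all tested genes were called lower and 16% higher. In siYAP/TAZ, 1 of 6 was lower and 1 higher, where 2.13% of all genes were called lower and 6.15% higher. A gene was called at an adjusted p under 0.05 from limma on log2(FPKM + 1). In the library labelled siTEAD1/2/3/4, which has no replicate and gets no p, 1 of 6 was past 2-fold lower and 0 higher, where 0.478% of all genes were past 2-fold lower and 0.412% higher. All these comparisons share the siNC libraries. With each library scaled to the same median over the tested genes, the calls over all genes shifted from 1806 lower and 1712 higher to 1460 and 2197 in siHHEX, and from 227 and 657 to 357 and 356 in siYAP/TAZ. The median change of all tested genes moved from -0.0055 to 0.058 in siHHEX and from 0.082 to -0.019 in siYAP/TAZ with this scaling, under which *FOSL1*, *JUN* and *JUND* were again called in siHHEX and *FOSL1* and *JUND* in siYAP/TAZ. Without siHHEX 3 and siYAP/TAZ 2, 4 members were called in siHHEX (*FOSL1*, *FOSL2* and *JUNB* lower, *JUND* higher), where 12.9% of all tested genes were called lower and 14.3% higher. In the same fit *FOSL1* was again lower and *JUND* higher in siYAP/TAZ, where 0.805% were called lower and 1.99% higher.

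**Figure D2:**
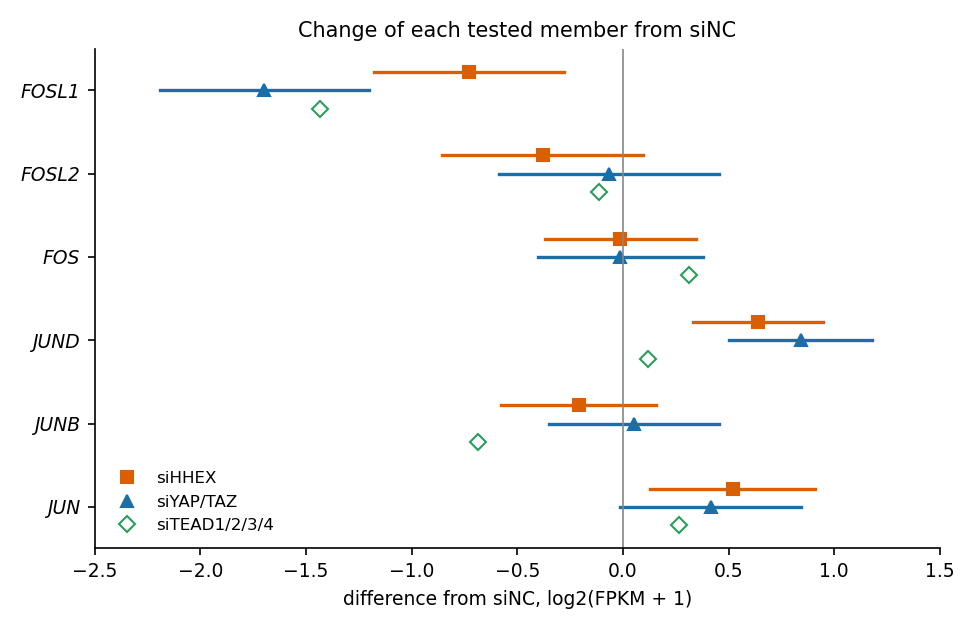
Difference of each tested member from siNC on log2(FPKM + 1), with 95% confidence intervals from limma for siHHEX and siYAP/TAZ and an open point without interval for the unreplicated library labelled siTEAD1/2/3/4. *FOSL1* lies left of 0 in all 3 knockdowns (-0.73, -1.70 and -1.44), and *JUND* right of 0 with intervals clear of it in siHHEX and siYAP/TAZ (0.64 and 0.84).

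*FOSL1*, on chromosome 11 of GRCh38 from 65892049 to 65900573 (minus strand), encodes FRA1, a FOS protein without the strong activation domain of c-Fos. Its level was 148 and 147 FPKM in siNC 1 and 2, 79.9, 82.6 and 104 FPKM in siHHEX 1, 2 and 3, 57.8 and 34.5 FPKM in siYAP/TAZ 1 and 2, and 53.8 FPKM in the library labelled siTEAD1/2/3/4. Every knockdown library was below both siNC libraries, and both siYAP/TAZ libraries were below all 3 siHHEX libraries. The siHHEX mean of 88.9 ± 13.3 FPKM (n = 3, SD) was 60.4% of the siNC mean, and the siYAP/TAZ mean of 46.1 ± 16.5 FPKM (n = 2, SD) was 31.4%. The library labelled siTEAD1/2/3/4 was at 36.5% of it.

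*FOSL1* fell by 0.73 on the log2 scale in siHHEX (SE 0.201, 95% confidence interval -1.18 to -0.28, limma adjusted p = 0.0248). In siYAP/TAZ it fell by 1.70 (SE 0.22, interval -2.19 to -1.2, limma adjusted p = 0.00615). In the library labelled siTEAD1/2/3/4 its log2 change was -1.44. The siHHEX call was lost without siNC 1 (limma adjusted p = 0.147), siNC 2 (0.121) or siHHEX 1 (0.0745) and without the filter on low values (0.0923), within a range of 0.0105 to 0.147 over 15 alternatives. That of siYAP/TAZ was lost without siNC 1 (0.0548) or siNC 2 (0.0625), within a range of 0.00311 to 0.0625, and with 1 siNC library the calls over all tested genes fell to 19 or 27 in siHHEX and 22 or 15 in siYAP/TAZ.

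The smaller fall in siHHEX was tested as a difference of its own. *FOSL1* was 0.97 higher on the log2 scale in siHHEX than in siYAP/TAZ (SE 0.201, limma adjusted p = 0.00831), and it was the 1 member called of 6 in this comparison. Over all tested genes, 25.9% were called lower in siHHEX than in siYAP/TAZ and 13.5% higher, and with median scaling the 2763 lower and 1437 higher genes became 1514 and 2504. The median over all tested genes was -0.13 in this comparison and 0.034 with median scaling, where *FOSL1* was 1.16 higher. Without siYAP/TAZ 2, which had the lowest *FOSL1* level, the difference was 0.60 (limma adjusted p = 0.0595), and without siHHEX 3 and siYAP/TAZ 2 together it was 0.48 (0.0427). The call was also lost with the GC and length correction (0.68, limma adjusted p = 0.0592), and with the replicate block added to it (0.61, 0.13), within a range of 0.00479 to 0.13 over 15 alternatives.

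*FOSL2*, on chromosome 2 from 28392448 to 28417317 (plus strand), encodes FRA2, the other FOS protein without a strong activation domain. It was at 7.53 and 8.24 FPKM in siNC, 4.38, 6.04 and 7.39 FPKM in siHHEX, 9.23 and 6.05 FPKM in siYAP/TAZ and 7.21 FPKM in the library labelled siTEAD1/2/3/4. The siHHEX values all lay below the siNC values, siHHEX 3 by little, and the siYAP/TAZ values lay on either side of them. The log2 change was -0.38 in siHHEX (interval -0.855 to 0.095, limma adjusted p = 0.179) and -0.065 in siYAP/TAZ (interval -0.585 to 0.456). *FOSL2* thus did not pass in either knockdown, but without siHHEX 3 and siYAP/TAZ 2 its siHHEX log2 change was -0.53 (limma adjusted p = 0.049, range 0.049 to 0.454 over 15 alternatives).

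*FOS*, on chromosome 14 from 75278826 to 75282230 (plus strand), encodes c-Fos, the founding member. It was at 1.46 and 1.88 FPKM in siNC, 1.96, 1.78 and 1.24 FPKM in siHHEX and 1.84 and 1.45 FPKM in siYAP/TAZ, so that all 3 groups overlapped. The library labelled siTEAD1/2/3/4 had the highest value, 2.30 FPKM, a log2 change of 0.31. The log2 change was -0.012 in siHHEX (interval -0.369 to 0.345) and -0.013 in siYAP/TAZ (interval -0.404 to 0.378).

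*FOSB*, on chromosome 19 from 45467995 to 45475179 (plus strand), encodes FosB, which like c-Fos carries an activation domain. Its values were 0.547 and 0.795 FPKM in siNC, 0.670, 0.341 and 0.798 FPKM in siHHEX, 0.330 and 0.442 FPKM in siYAP/TAZ and 0.788 FPKM in the library labelled siTEAD1/2/3/4. All lay under 1 FPKM, where the log2(FPKM + 1) scale understates changes, and the siYAP/TAZ values lay below both siNC values. Without the filter, the log2 change in siYAP/TAZ was -0.27 (limma adjusted p = 0.357).

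*JUND*, on chromosome 19 from 18279694 to 18281622 (minus strand), encodes JunD, the JUN protein that is present in most resting cells and can pair with any FOS protein. It was at 61.9 and 57.2 FPKM in siNC, 93.0, 89.8 and 97.1 FPKM in siHHEX, 92.1 and 125 FPKM in siYAP/TAZ and 64.7 FPKM in the library labelled siTEAD1/2/3/4. Every siHHEX and siYAP/TAZ library was above both siNC libraries, and the library labelled siTEAD1/2/3/4 exceeded the higher siNC value by little. The group means were 157% of siNC in siHHEX and 183% in siYAP/TAZ. *JUND* rose by a log2 change of 0.64 in siHHEX (SE 0.137, limma adjusted p = 0.0117) and 0.84 in siYAP/TAZ (SE 0.15, limma adjusted p = 0.0159).

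The siHHEX call of *JUND* was lost without siNC 1 (limma adjusted p = 0.102) or siNC 2 (0.104), with the GC and length correction (0.20, 0.399) and with the replicate block added to it (0.255, 0.377), and that of siYAP/TAZ without siNC 1 (0.12), siNC 2 (0.156) or siYAP/TAZ 2 (0.0906) and without the filter (0.054). Over 15 alternatives its adjusted p ranged from 0.00809 to 0.399 in siHHEX and from 0.00982 to 0.156 in siYAP/TAZ. Between siHHEX and siYAP/TAZ its log2 difference was -0.20 (interval -0.512 to 0.106, limma adjusted p = 0.253). It was -0.52 after the GC and length correction (0.0521), -0.42 without siYAP/TAZ 1 (0.0465, called) and 0.017 without siYAP/TAZ 2 (0.933), within a range of 0.0465 to 0.979 over 15 alternatives.

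*JUNB*, on chromosome 19 from 12791486 to 12793315 (plus strand), encodes JunB, which can oppose c-Jun at some promoters. It was at 50.8 and 51.9 FPKM in siNC, 40.3, 38.7 and 55.8 FPKM in siHHEX, 57.7 and 49.3 FPKM in siYAP/TAZ and 31.6 FPKM in the library labelled siTEAD1/2/3/4. siHHEX 1 and 2 lay below both siNC libraries and siHHEX 3 above them, and the siYAP/TAZ values lay on either side of siNC. The library labelled siTEAD1/2/3/4 had the lowest value, 61.5% of the siNC mean, a log2 change of -0.68 that was not past 2-fold.

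The log2 change of *JUNB* was -0.21 in siHHEX (interval -0.575 to 0.159, limma adjusted p = 0.331) and 0.054 in siYAP/TAZ (interval -0.348 to 0.456, limma adjusted p = 0.875). Its sign in siYAP/TAZ turned with median scaling, to -0.063. Without siHHEX 3 and siYAP/TAZ 2, its siHHEX log2 change was -0.37 (limma adjusted p = 0.0336, range 0.0228 to 0.588 over 15 alternatives).

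*JUN*, on chromosome 1 from 58776845 to 58784048 (minus strand), encodes c-Jun, the main substrate of the JNK kinases in the family. It was at 2.63 and 3.44 FPKM in siNC, 5.35, 3.89 and 5.14 FPKM in siHHEX, 3.71 and 5.08 FPKM in siYAP/TAZ and 3.82 FPKM in the library labelled siTEAD1/2/3/4. All 6 knockdown libraries were above both siNC libraries, the lowest of them by little. *JUN* rose by a log2 change of 0.52 in siHHEX (SE 0.174, interval 0.129 to 0.911, limma adjusted p = 0.0461) and its change in siYAP/TAZ, 0.41, did not pass (interval -0.013 to 0.843, limma adjusted p = 0.196). The difference between siHHEX and siYAP/TAZ was 0.11 (interval -0.286 to 0.496). The siHHEX call was lost without siNC 1 (limma adjusted p = 0.318), siNC 2 (0.112), siHHEX 1 (0.122) or siHHEX 3 (0.101), without siHHEX 3 and siYAP/TAZ 2 (0.0825) and without the filter (0.122). It was also lost with the replicate block (0.47, 0.117), the GC and length correction (0.31, 0.259) and both together (0.29, 0.4). It held in 6 of 15 alternatives, over which the adjusted p ranged from 0.0178 to 0.4.

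Summed over the 7 members, the family was at 271 ± 1.66 FPKM (n = 2, SD) in siNC, 240.1 ± 27.3 FPKM (n = 3, SD) in siHHEX, 222 ± 0.481 FPKM (n = 2, SD) in siYAP/TAZ and 164 FPKM in the library labelled siTEAD1/2/3/4. *FOSL1* made up 54.2% and 54.3% of it in siNC 1 and 2, 35.4%, 37.0% and 38.4% in siHHEX, 25.9% and 15.5% in siYAP/TAZ and 32.8% in the library labelled siTEAD1/2/3/4. *JUND* went from 22.7% and 21.2% in siNC to 41.2%, 40.2% and 35.8% in siHHEX, 41.4% and 56.4% in siYAP/TAZ and 39.4% in the library labelled siTEAD1/2/3/4. *JUND* was thus above *FOSL1* in siHHEX 1, siHHEX 2, both siYAP/TAZ libraries and the library labelled siTEAD1/2/3/4. It was below *FOSL1* in siNC and siHHEX 3. In siYAP/TAZ 2, *JUNB*, at 22.2%, was also above *FOSL1*. The ratio of the FOS genes' summed FPKM to that of the JUN genes was 1.36 and 1.40 in siNC, 0.628, 0.685 and 0.719 in siHHEX, 0.451 and 0.236 in siYAP/TAZ and 0.640 in the library labelled siTEAD1/2/3/4. No knockdown library reached the siNC ratios. These sums, shares and ratios are of FPKM without the GC and length correction. After it, the siHHEX rise of *JUND* was not called (0.20, limma adjusted p = 0.399). An exact permutation test of such a single value, 2 siNC against 3 siHHEX libraries, cannot go below 0.10, so none was run. In RNA of whole cultures, fewer cells with a transcript and less of it per cell cannot be told apart.

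**Figure D3:**
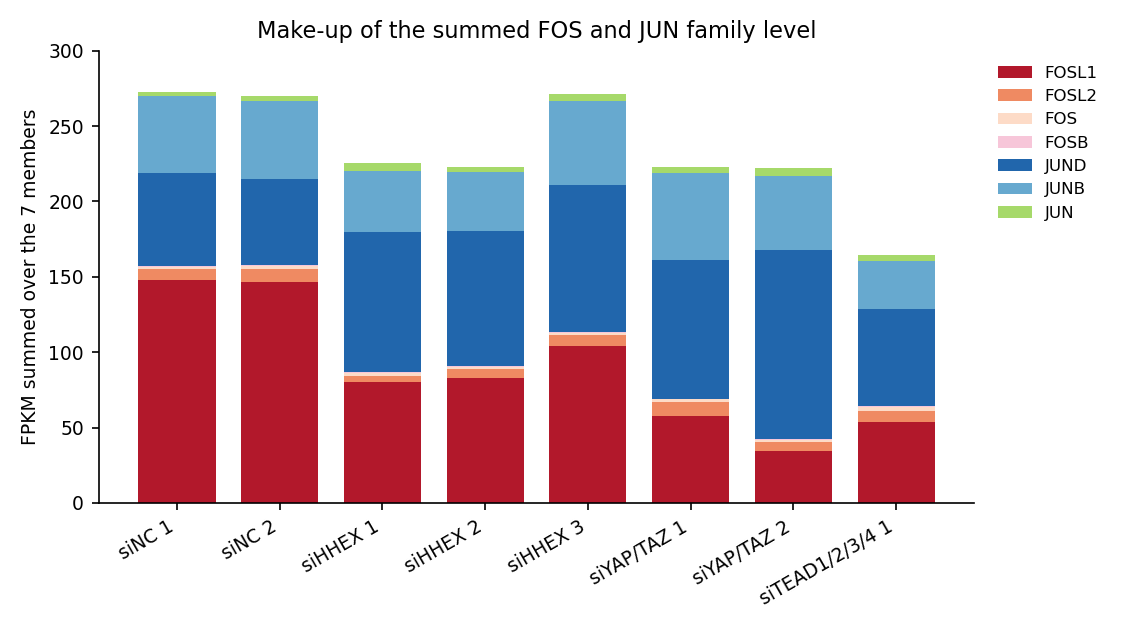
FPKM of the 7 members stacked for each library, *FOSL1*, *FOSL2*, *FOS* and *FOSB* from the base and *JUND*, *JUNB* and *JUN* above them. The *FOSL1* block shrinks from 147 FPKM in siNC to 34.5 FPKM in siYAP/TAZ 2, and the *JUND* block is widest there, at 125 FPKM.

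*JUND* and *JUNB* are among the genes richest in G and C, and changes in siHHEX went with GC content across genes. GC content was 69.9% for the canonical transcript of *JUND*, exceeded by 0.433% of tested genes, 64.9% for *JUNB* (exceeded by 4.67%) and 58.7% for *FOSL1* (exceeded by 21%), against a median of 49.1%. Across 10614 genes, which are not independent replicates, the change of a gene from the siNC mean had a Spearman correlation with GC content of 0.679, 0.599 and 0.755 in siHHEX 1, 2 and 3, 0.060 and -0.052 in siYAP/TAZ 1 and 2, and 0.298 in the library labelled siTEAD1/2/3/4. Between the siNC libraries it was 0.212.

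Each library was therefore corrected for its trend on GC content and transcript length. *FOSL1* fell further in siHHEX after the correction, by 1.10 (limma adjusted p = 0.0189), and by 1.78 in siYAP/TAZ (limma adjusted p = 0.00405). Corrected changes of *FOSL1* were -1.23, -1.10 and -0.97 in siHHEX 1, 2 and 3. *JUND* was no longer called in siHHEX, at 0.20 (interval -0.119 to 0.517, limma adjusted p = 0.399), and stayed called in siYAP/TAZ, at 0.72 (limma adjusted p = 0.0237). *JUNB* fell in siHHEX after the correction, by 0.64 (limma adjusted p = 0.0228), with all 3 siHHEX libraries below siNC (-0.73, -0.74 and -0.46). *JUN* was no longer called in siHHEX (0.31, limma adjusted p = 0.259).

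Between siHHEX and siYAP/TAZ after the correction, *JUNB* was 0.60 lower in siHHEX (limma adjusted p = 0.0247) and the difference of *FOSL1*, 0.68, was no longer called (limma adjusted p = 0.0592). Over all genes, 715 were called in siHHEX after the correction against 3518 before it (3.18% lower and 3.56% higher), and 1216 against 884 in siYAP/TAZ, where 227 lower and 657 higher genes became 652 and 564 (6.14% and 5.31%). The correction removes any change that goes with GC content, whatever gave rise to it, and which of the 2 sets of siHHEX values for *JUND*, *JUNB* and *JUN* is nearer to the cells was not tested.

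**Figure D4:**
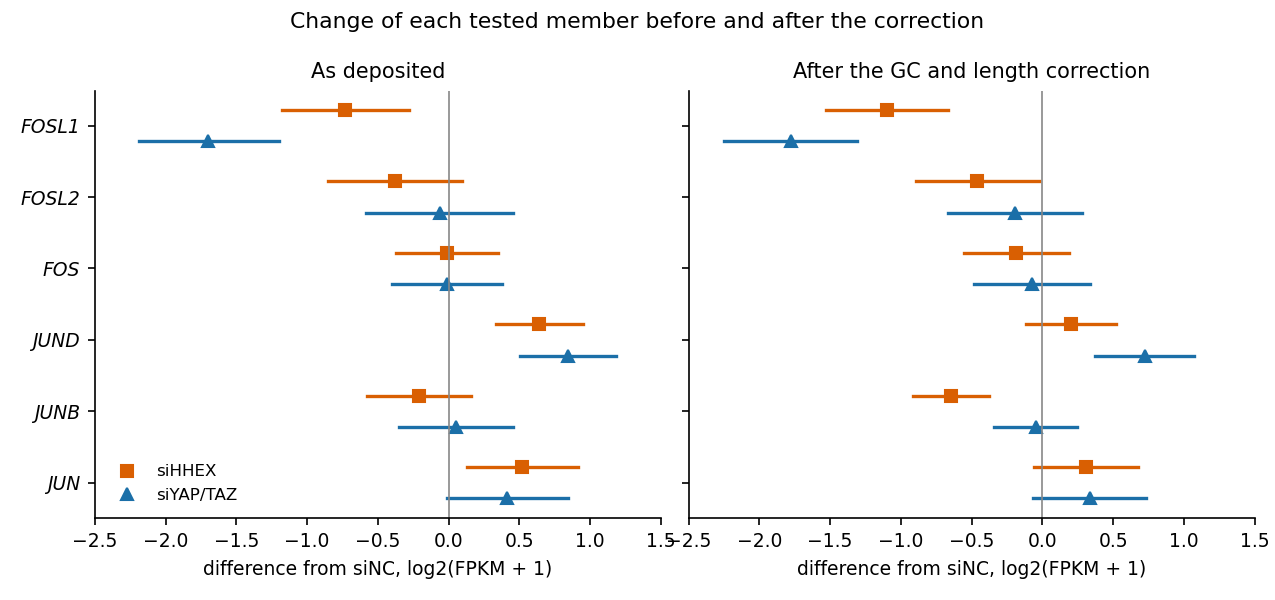
Log2 differences from siNC with 95% confidence intervals for the 6 tested members in siHHEX and siYAP/TAZ, left from the deposited FPKM and right after the correction for GC content and transcript length. *FOSL1* stays left of 0 on both sides, the siHHEX interval of *JUND* moves from 0.331 to 0.948 onto 0, and that of *JUNB* moves off 0.

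Other bZIP proteins pair with FOS or JUN. Of 12 such genes 7 were tested, of which 1 was lower in siHHEX (median log2 change 0.025, against -0.0055 over all tested genes), near the 16.9% of all tested genes called lower there. In siYAP/TAZ 2 were lower and 1 higher (median -0.41 against 0.082), where 2.13% of all tested genes were called lower and 6.15% higher. *MAFF*, a small MAF protein, fell from 6.35 ± 0.452 FPKM (n = 2, SD) in siNC to 4.25 ± 0.587 FPKM (n = 3, SD) in siHHEX (log2 change -0.49, limma adjusted p = 0.0255) and 2.77 ± 0.0697 FPKM (n = 2, SD) in siYAP/TAZ (-0.96, limma adjusted p = 0.0102). *MAFK*, another small MAF protein, fell in siYAP/TAZ (-0.67, limma adjusted p = 0.0347) and was at 0.025 in siHHEX, a difference between the knockdowns of 0.69 (limma adjusted p = 0.00794). *ATF7*, which pairs with JUN proteins, rose in siYAP/TAZ (0.59, limma adjusted p = 0.0288). After the GC and length correction, the siYAP/TAZ calls were again *MAFF*, *MAFK* and *ATF7*, and in siHHEX *MAFF* was at -0.82 (0.0199) and *ATF7* was called too, at 0.43 (0.0498).

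MAP kinases phosphorylate FOS and JUN proteins and the factors that induce their genes. Of 9 tested of 10, 2 were lower and 3 higher in siHHEX (median -0.24), and 0 lower and 1 higher in siYAP/TAZ (median -0.080). Over all tested genes, 16.9% and 16% were called lower and higher in siHHEX, and 2.13% and 6.15% in siYAP/TAZ. The 2 lower genes were *MAP2K4* and *MAPK8* (JNK1) of the JNK cascade, with siHHEX log2 changes of -1.05 (limma adjusted p = 0.0104) and -0.96 (limma adjusted p = 0.00387). *MAP2K7*, which like *MAP2K4* encodes a kinase that activates JNK, rose by 0.74 (limma adjusted p = 0.0054), as did *MAP2K2* (MEK2) by 0.65 (limma adjusted p = 0.00853) and *MAPK3* (ERK1) by 0.94 (limma adjusted p = 0.00368), and *MAPK3* also rose in siYAP/TAZ by 0.64 (limma adjusted p = 0.0207). After the GC and length correction, *MAP2K4* (-0.68, limma adjusted p = 0.138) and *MAP2K2* (0.20, 0.231) were no longer called in siHHEX, whereas *MAPK8*, *MAPK3* and *MAP2K7* were, with log2 changes of -0.47, 0.54 and 0.41. In siYAP/TAZ, *MAPK8* was then called lower (-0.53, 0.0236) beside the higher *MAPK3*.

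Of the 6 SRF and ternary complex factors, which induce *FOS* after growth factor signals, 1 was lower and 1 higher in siHHEX (median -0.087), near the 16.9% and 16% of all tested genes. In siYAP/TAZ 0 were called (median 0.048), where 2.13% of all tested genes were called lower and 6.15% higher. *ELK3* fell from 17.2 ± 0.726 FPKM (n = 2, SD) to 8.32 ± 2.42 FPKM (n = 3, SD) in siHHEX (48.3% of the siNC mean, limma adjusted p = 0.0104), was at -0.71 in siYAP/TAZ (limma adjusted p = 0.0804) and at -0.99 in the library labelled siTEAD1/2/3/4. *MKL1*, an SRF coactivator, rose in siHHEX by 0.50 (limma adjusted p = 0.0152). Neither was called in siHHEX after the GC and length correction (limma adjusted p = 0.0542 and 0.221), and in siYAP/TAZ *ELK3* (-0.80, 0.0332) and *SRF* itself (-0.69, 0.0354) were then called lower. Over all genes, 6.14% were called lower in siYAP/TAZ after the correction.

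Of 12 other immediate-early genes 10 were tested, and 1 was called in siHHEX, *KLF6*, which fell by 0.80 (limma adjusted p = 0.00892), against 0 in siYAP/TAZ. Over all tested genes, 16.9% were called lower and 16% higher in siHHEX, and 2.13% and 6.15% in siYAP/TAZ. After the GC and length correction *KLF6* was not called in siHHEX (limma adjusted p = 0.0574), *NR4A1*, a nuclear receptor gene, was called lower in siHHEX (-0.74, 0.0352) and siYAP/TAZ (-0.74, 0.0335), and *MYC* was called lower in siYAP/TAZ (-0.64, 0.0236). The medians were -0.073 in siHHEX and -0.11 in siYAP/TAZ. *EGR1*, an immediate-early zinc finger factor, was the 1 gene of the list past 2-fold in the library labelled siTEAD1/2/3/4, at 10.2 FPKM against 4.60 and 4.29 FPKM in siNC. *FOS* was highest in the same library, as given above.

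Of 17 genes known as AP-1 targets 8 were tested, of which 1 was lower in siHHEX and 2 in siYAP/TAZ, 0 were higher in either, and 7 of 8 had a log2 change below 0 in each. The share of all tested genes called lower was 16.9% in siHHEX and 2.13% in siYAP/TAZ. Their medians were -0.28 and -0.31, against -0.0055 and 0.082 over all tested genes. *CCND1* (cyclin D1) fell from 430 ± 15.0 FPKM (n = 2, SD) in siNC to 121 ± 24.6 FPKM (n = 3, SD) in siHHEX (log2 change -1.84, limma adjusted p = 0.00346) and 130 ± 41.6 FPKM (n = 2, SD) in siYAP/TAZ (-1.76, limma adjusted p = 0.00612). *HBEGF*, an EGF receptor ligand, fell in siYAP/TAZ (-0.62, limma adjusted p = 0.038). All these calls held after the GC and length correction, with limma adjusted p from 0.00405 to 0.0188, and *PLAUR*, the urokinase receptor gene, was then called lower in siHHEX as well (-0.66, 0.0304, from -0.32 and 0.159). *CCND1* is also known as a target of YAP and TEAD. The matrix metalloproteinase genes *MMP1*, *MMP3*, *MMP9*, *MMP10* and *MMP13* did not pass the filter.

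**Figure D5:**
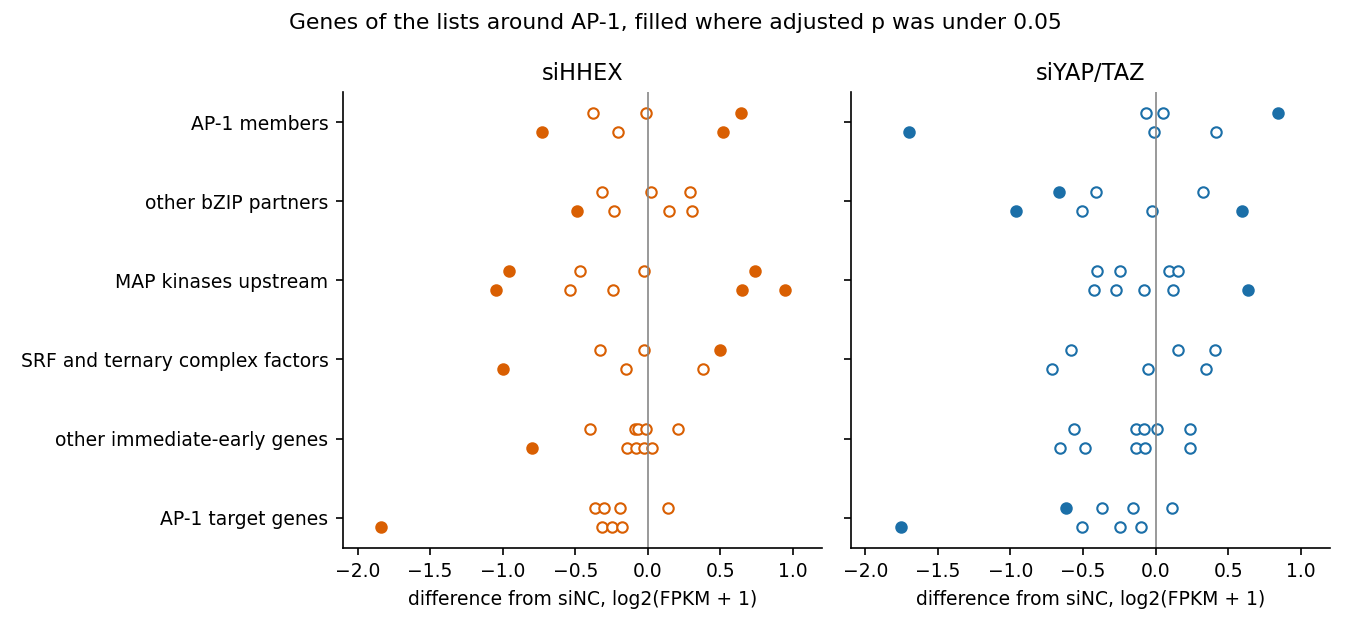
Log2 differences from siNC for the tested genes of 6 lists in siHHEX (left) and siYAP/TAZ (right), 1 point per gene, filled where the adjusted p from limma was under 0.05. The AP-1 target genes lie left of 0 for 7 of 8 genes on each side, led by *CCND1* at -1.84 and -1.76, and the MAP kinases have filled points on both sides of 0 in siHHEX.

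The genes whose levels were most like those of *FOSL1* over the 8 libraries, by Pearson's r on log2(FPKM + 1), were *NOP2* (0.981), *HBEGF* (0.980), *NOL7* (0.977), *BDNF* (0.972) and *ANXA3* (0.972), chosen from all tested genes for this likeness and all resting on the same libraries. *ANXA3*, encoding an annexin, changed by amounts near those of *FOSL1*, with log2 changes of -0.79, -1.36 and -1.36 in siHHEX, siYAP/TAZ and the library labelled siTEAD1/2/3/4. *NOL7* followed the same order with far smaller changes, -0.090, -0.19 and -0.16. Within the family, *JUND* had r = -0.675 with *FOSL1*, *JUN* -0.508, *FOS* -0.182, *FOSL2* 0.216 and *JUNB* 0.267 over the 8 libraries.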

How the data were processed

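The values deposited by the authors are FPKM, 1 for each gene in each library, from RNA taken up in Trizol and read on an Illumina HiSeq instrument. The submitters' processing notes list Trimmomatic 0.36, HISAT2 2.0.5, Cufflinks 2.2.1 and HTSeq 0.9.1 without their roles, and the paper names DESeq. The genome build and annotation for the RNA-seq are not given in the sources used here, and coordinates are those of the GENCODE annotation of GRCh38, matched by symbol.

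Groups and replicate numbers came from the labels. Of 20030 genes, 10677 reached 1 FPKM or more in 2 or more libraries and entered the test of log2(FPKM + 1) with limma 3.58.1 in R 4.3.3, in 1 fit of 4 groups with a variance trend and Benjamini-Hochberg adjustment over all of them. A call is an adjusted p under 0.05. The siTEAD1/2/3/4 library gets no p. On simulated data, log2 changes of 1 were recovered for 79% of 200 genes in siHHEX, 72.5% in siYAP/TAZ and 73.5% between them. There were 6, 8 and 7 false calls, and changes of 0.5 were recovered for 0% in each. The simulated noise was independent and without a GC trend, and only 200 of 10677 genes were changed. In the data 3518 genes were called in siHHEX, where changes went with GC content, so these rates do not carry over to the data. GC content and length were matched for 99.41% of tested genes, and the correction was a spline trend per library. Alternatives were a pseudocount of 0.1, no filter, fits of only the groups compared, the replicate block, median scaling, the GC and length correction with and without the block, each replicated library left out in turn, and, chosen after seeing the data, siHHEX 3 and siYAP/TAZ 2 left out together.

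The family members and the gene lists were chosen with earlier results of these data known, and 1 gene of the AP-1 target list is not reported here. Named genes are all members, the knockdown targets, up to 6 genes of each other list with an adjusted p under 0.05 in siHHEX or siYAP/TAZ, by the largest change, and the 5 genes most like *FOSL1*. *EGR1*, *TEAD3*, *SRF*, *NR4A1*, *MYC*, *PLAUR*, the uncalled epithelial markers and the *DCN*, *PTPRC*, *CD68*, *LYZ* and *COL1A1* markers were named after their values were seen. Other steps used Python 3.11.15, numpy 2.4.6, pandas 2.3.3, scipy 1.17.1 and matplotlib 3.10.9.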

Additional observations from a re-analysis of the deposited data

How the results depend on the processing

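No call of a member was kept under every alternative. *FOSL1* was lower than in siNC under all 15 alternatives in siHHEX, called in 11, and in siYAP/TAZ, called in 13, and *JUND* was higher under all 15 in both, called in 11 each. Not all alternatives could move the estimates. No filter, fits of only the groups compared and leaving out a library of the other knockdown left an estimate as it was. For *FOSL1* in siHHEX it stayed at -0.731. The replicate block, siHHEX 3 left out, and siHHEX 3 and siYAP/TAZ 2 left out together all gave the same siHHEX estimate, -0.849. Where calls were lost, the cause was not tested. Without the filter, 1 member was called in siHHEX (*JUND*) and 1 in siYAP/TAZ (*FOSL1*), with more genes to adjust over. Leaving out each replicate in turn gave 0 to 3 called members in siHHEX, 0 to 2 in siYAP/TAZ and 0 to 2 between siHHEX and siYAP/TAZ, with 0 in both knockdowns when siNC 1 or siNC 2 was left out. In the same fits the calls over all 10677 genes ranged from 19 to 4839 in siHHEX, from 15 to 1317 in siYAP/TAZ (92 without siYAP/TAZ 2) and from 1026 to 5161 between siHHEX and siYAP/TAZ. The count between siHHEX and siYAP/TAZ went from 1 to 2, adding *JUNB*, without siHHEX 3 and siYAP/TAZ 2, without siHHEX 3 alone and with the replicate block, and adding *JUND* without siYAP/TAZ 1, with 1290, 3266, 2937 and 2941 genes called over all, against 4200. In the library labelled siTEAD1/2/3/4, *FOSL1* was the 1 member past 2-fold with a pseudocount of 0.1, no filter, median scaling, the GC and length correction and either siNC library left out. The other alternatives leave this value as it is.

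Calls over all tested genes fell from 3518 to 715 in siHHEX and from 4200 to 943 between siHHEX and siYAP/TAZ with the GC and length correction, and to 2062 and 2937 with the replicate block. Without the filter they were 1907 in siHHEX and 320 in siYAP/TAZ. Fitting siNC and siYAP/TAZ alone gave 1759 in siYAP/TAZ, against 884.

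Replicate numbers 1 and 2 occur in the labels of all 3 replicated groups, but same-numbered libraries did not deviate together (correlations from -0.0704 to 0.0215). In the knockdown groups these deviations also hold the difference between siRNAs, so the correlations cannot tell whether the numbers pair the samples. With the replicate block, *FOSL1* was at -0.85 in siHHEX and -1.70 in siYAP/TAZ and called in both. Of the members, 2 were called in siHHEX in place of 3, since *JUN* was lost (0.47, limma adjusted p = 0.117, range 0.0178 to 0.4). *FOS* in siHHEX was at 0.107. No other library carries the number of siHHEX 3, so the block leaves siHHEX 3 no part in the siHHEX changes, with or without the GC and length correction. The siHHEX changes with the block are thus those without siHHEX 3 (*FOSL1* -0.849 in both), and the 2 alternatives are not separate checks of them.

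The signs that turned belong to members not called in that comparison in the values reported first, although *JUND* between siHHEX and siYAP/TAZ was called without siYAP/TAZ 1 (-0.423, limma adjusted p = 0.0465). *JUND* in the library labelled siTEAD1/2/3/4 went from 0.12 to -0.085 with the GC and length correction. *FOS* in siHHEX was at 0.0385 with median scaling, 0.107 without siHHEX 3 and siYAP/TAZ 2 and -0.125 to 0.107 with each replicate left out, and *FOS* in siYAP/TAZ was at 0.0951 and from -0.126 to 0.1. *FOSL2* in siYAP/TAZ was at 0.204 without both libraries and from -0.333 to 0.204, and *JUNB* in siYAP/TAZ at -0.063 with median scaling, -0.0476 with the GC and length correction, also with the block, and from -0.0577 to 0.165. Between siHHEX and siYAP/TAZ, *FOS* was at -0.00371 with a pseudocount of 0.1, -0.109 after the correction and from -0.107 to 0.12, *JUN* at -0.0241 after the correction, -0.0389 with the block added and from -0.0782 to 0.288, and *JUND* from -0.423 to 0.017. The depth is unknown beyond its ratio between libraries, so that the smallest level these libraries could show for *FOSB* or *FOS* is unknown too.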
